A study of Mus musculus with 10 samples.

Results

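Peaks of H3K27Ac chromatin were compared between formalin-fixed, paraffin-embedded (FFPE) mouse liver that had been homogenized at 65 °C and at 50 °C before 5 min of sonication. The sites of interest were those with a peak in both 65 °C libraries and none in the 50 °C library, called 65 °C-only sites, and the reverse, with a peak at 50 °C and none in either 65 °C library, called 50 °C-only sites. Overlapping peaks of the 3 lists on chromosomes 1 to 19 were merged into 67000 sites on the mouse build mm9. Of these, 15275 were 65 °C-only (22.8%) and 2373 were 50 °C-only (3.54%). A further 17816 sites had a peak in all 3 lists and are called shared sites, 29794 had a peak in 1 library of the 65 °C pair alone, and 1742 had one there and at 50 °C.

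The groups were FiTAc-seq_65°C_5min, with 2 libraries here called library 1 and library 2, and FiTAc-seq_50°C_5min, with 1 library. All came from full sections of FFPE normal mouse liver, were deparaffinized, rehydrated and heated overnight in SDS detergent buffer, and were immunoprecipitated with the same H3K27Ac antibody by a low-input protocol. The labels do not state strain, sex, age or how many animals or blocks were used, nor which of the 2 library kits made which library, so the spread between the 2 libraries may be technical. Further lists, which took no part in choosing the sites, served as readouts. They were H3K27Ac of fresh frozen liver and H3K4me2 of FFPE liver homogenized with proteinase K (FiT-seq). The FiTAc-seq H3K27Ac lists of the same 2 temperatures made with 40 min of sonication were also used. Whether they came from the same animals or blocks is not stated.

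Acetylation of histone H3 at lysine 27 is written by the p300 and CBP acetyltransferases at active enhancers and promoters, which in liver are bound by hepatocyte nuclear factors and C/EBP proteins. Dimethylation of lysine 4 of the same histone is found at promoters and at enhancers whether or not they are active. Formalin joins protein to protein and to DNA. Heat in detergent reverses part of these links before sonication shears the chromatin, and homogenization temperature is the step varied here. A whole section holds every cell type of the liver, so fewer cells with a mark and less mark per cell cannot be told apart. The liver label was not checked against marker genes, because no gene annotation of mm9 was used.

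On chromosomes 1 to 19 there were 59431 peaks in library 1 and 55848 in library 2, on average 57640 ± 2534 (SD, n = 2). At 50 °C there were 38099. Their peaks covered 43.7 and 39.7 Mb at 65 °C and 17.1 Mb at 50 °C. The value given with each peak, read as the −log10 of a q-value, had a median of 7.54 and 7.44 at 65 °C and 5.65 at 50 °C, and a maximum of 214 and 162 against 49.5. It took 973 and 842 distinct values at 65 °C and 384 at 50 °C. These values depend on read depth, which is unknown, so a site missing from a list is one not called there, not one shown to lack the mark. Depth and temperature cannot be told apart with 1 library at 50 °C. No test was run: an exact permutation of 2 libraries against 1 cannot give a p below 1 in 3, and the single 50 °C library gives no spread of its own.

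The sites that differed between temperatures lay almost all on the 65 °C side. Merged with the 50 °C list alone, library 1 had 38103 sites of its own against 3654 at 50 °C, and library 2 had 34040 against 4341. The means were 36072 ± 2873 and 3998 ± 486 (SD, n = 2). The 2 libraries of 65 °C differed from one another by 19330 sites in library 1 alone and 12810 in library 2 alone. The excess at 65 °C over 50 °C was therefore 34449 and 29699 sites, where the pair itself differed by 6520. The contrast was smaller at equal list length. With each 65 °C list limited to its 38099 highest peaks, 65 °C-only sites numbered 7815 and 50 °C-only sites 3847, a ratio of 2.03 in place of 6.44. With peaks within 500 bp merged in every list, they numbered 8523 and 1777.

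Whether a 65 °C peak was found at 50 °C depended on its rank within the list. All 1022 peaks of library 1 ranked in its highest 1000, ties included, met a 50 °C peak, as did all 1000 of library 2. In the highest 10% of each list, 99.2% met one in either library. The share was 55.3% and 62.4% between the 70th and 80th percentile and 7.56% and 9.62% in the lowest 10%. At each of these ranks but the highest 1000, where all met, the libraries of the pair found one another more often. Between the 70th and 80th percentile, 97.2% of peaks of library 1 met one of library 2 and 99.0% in the other direction. Peaks of the 50 °C list were found at 65 °C at every rank, from 78.1% and 74.2% in the lowest 10% to 99.9% in both libraries in the highest.

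**Figure D1:**
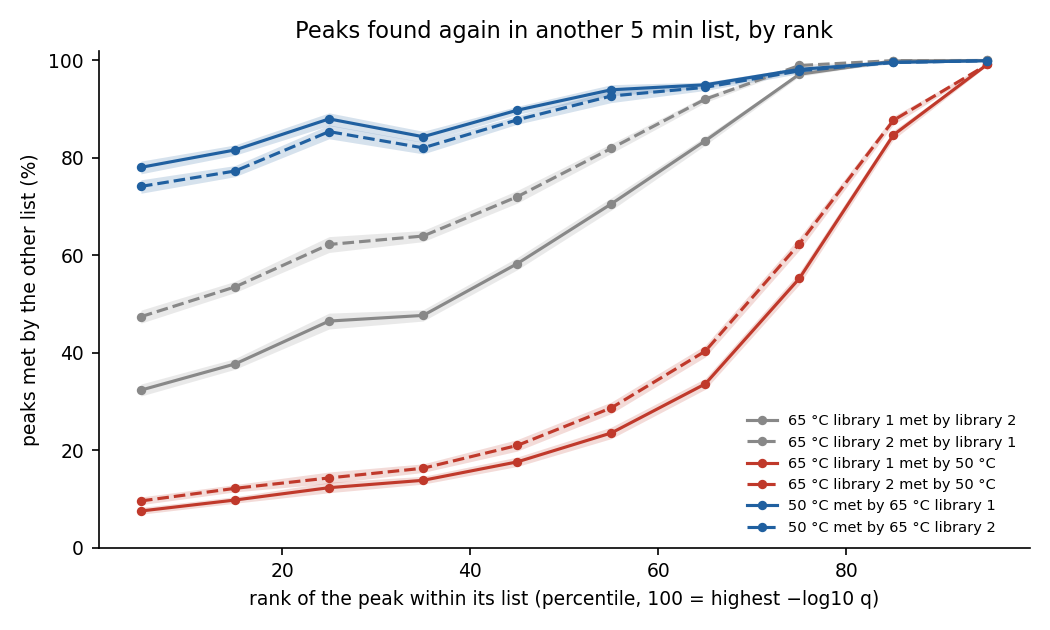
Share of peaks of a list that met a peak of another list (vertical axis, percent) by rank within the list in bins of 10 percentiles (horizontal axis, 100 is the highest −log10 q-value). Lines are list pairs, shading is the Wilson 95% interval, and the red lines of 65 °C peaks met at 50 °C fall to 7.56% and 9.62% at the low end while the blue lines of 50 °C peaks end at 78.1% and 74.2% there.

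The 65 °C-only sites were of intermediate width and rank. Their peaks had a median width of 371 bp in library 1 and 324 bp in library 2, where shared sites had 1274 and 1140 bp. Taking the mean over the pair at each site, the median was 355.5 bp, and the middle range ran from 252.5 to 534.5 bp. Their median rank was at the 50.3th percentile in library 1 and the 45.2th in library 2, against 83.9 and 82.7 at shared sites. Sites in 1 library of the pair alone lay lower, at 26.0 and 23.3, with widths of 201 and 192 bp. The 65 °C-only sites covered 9.48 Mb. Of them, 830 (5.43%) had a mean width of at least 1000 bp and 47 of at least 2000 bp, whereas 0 of the 2373 50 °C-only sites reached 1000 bp. The 50 °C-only class rests on 1 library, and the 65 °C-only class asks for a peak in 2. Sites in 1 library of the pair alone also had few wide peaks, with 3 of library 1 from 1000 to under 2000 bp.

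The 50 °C-only sites were narrow and low. Their median width was 171 bp, close to the narrowest peak in the lists at 146 bp, and their median rank in the 50 °C list was at the 19.4th percentile. The highest stood at the 79.4th percentile with a −log10 q-value of 9.23, a value that 6 sites shared at rank 7675. No 50 °C-only site ranked higher, whereas shared sites held rank 1 and the best 65 °C-only sites ranked 1068 in library 1 and 2108 in library 2. These 50 °C-only sites covered 0.453 Mb.

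Temperature also went with width at the sites called in all 3 lists. The widest peak of a shared site had a median width of 417 bp at 50 °C, and at 65 °C it was 2.59 times as wide in library 1 and 2.34 times in library 2, as the median over sites. It was wider at 65 °C in 94.2% and 92.9% of sites. Between the libraries of the pair the median ratio was 1.07. Library 1 had a single peak at a site where the 50 °C list had at least 2 in 5528 cases (31.0%), and library 2 in 4601 (25.8%). Whether that single peak overlapped each of the 50 °C peaks was not measured. The 17816 shared sites held 33964 peaks at 50 °C and 23567 and 25898 at 65 °C, so at 50 °C they were listed as more and shorter peaks. These sites spanned 34.5 Mb, more than the 17.1 Mb of the whole 50 °C list, so much of their span was not listed at 50 °C.

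The highest 65 °C-only site lay on chromosome 3, 82829243 to 82831216. Its peak was 1974 bp wide with rank 1068 in library 1, and 1172 bp wide with rank 3279 in library 2. The nearest 50 °C peak was 15027 bp away. In the 40 min lists it ranked 2430 at 65 °C and 6972 at 50 °C, and in the fresh frozen list 16690, so all 3 of those lists held it. The second, a 446 bp site on chromosome 12, 104975861 to 104976306, ranked 2731 and 2108 in the pair and 6295 in fresh frozen liver. It lay only 159 bp from a 50 °C peak.

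The third was a 2092 bp site on chromosome 17, 85082460 to 85084551, 477 bp from a 50 °C peak. Its rank was 3400 in library 1, 3000 in library 2 and 3558 in fresh frozen liver. The fourth, on chromosome 5, 87429034 to 87431398, stood by itself, 73747 bp from the nearest 50 °C peak, with widths of 1936 and 2236 bp and ranks of 4599 and 2331. Its ranks at 40 min were 7526 at 50 °C and 7315 at 65 °C. The fifth, on chromosome 9, 46039435 to 46041502, ranked 3628 and 4141 in the pair and lay 566 bp from a 50 °C peak. It was low in fresh frozen liver, with rank 35384. All 5 met a fresh frozen peak and a peak of both 40 min lists, and none met an H3K4me2 peak. At 3 of the 5 the 50 °C list had a peak within 566 bp, so these were stretches missing beside a called peak.

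The widest 65 °C-only sites were single broad peaks. The first, on chromosome 13, 52247899 to 52252079, was 3894 and 4102 bp wide in the pair, with ranks of 8079 and 4464. The second, on chromosome 10, 127441150 to 127445350, was 3990 and 3706 bp wide, and the third, on chromosome 15, 10107092 to 10110620, 3275 and 3496 bp. No 50 °C peak lay within 22992, 26392 and 23794 bp of them. All 3 met a fresh frozen peak, with ranks of 12566, 36319 and 31097, and a peak in both 40 min lists.

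The 50 °C-only sites of highest rank had little in common with these. The first 5, tied at rank 7675 and taken in genome order, were 155 to 349 bp wide. One was a 181 bp site on chromosome 1 (177569145 to 177569325) and the next a 155 bp site on chromosome 2 (70620008 to 70620162). The others were on chromosome 4 at 206 bp (129218840 to 129219045), chromosome 5 at 349 bp (140858285 to 140858633) and chromosome 6 at 291 bp (119864833 to 119865123). None met a peak of fresh frozen liver, H3K4me2 or either 40 min list. The distance to the nearest 65 °C peak was 2574, 20074, 317, 288 and 99 bp in that order. The 3 widest, of 540, 530 and 512 bp, lay 225, 167 and 143 bp from a 65 °C peak. The 3 highest with a fresh frozen peak were on chromosome 5, 24413993 to 24414138, chromosome 11, 4805952 to 4806112, and again chromosome 5, 97425301 to 97425485. They were 146, 161 and 185 bp wide, and their fresh frozen ranks were 8160, 7295 and 22232. The last stood out at 40 min, where the peaks it met ranked 1045 at 50 °C and 3866 at 65 °C. It lay 56 bp from a 65 °C peak and a shared site. Whether those 40 min peaks also covered the shared site was not checked. Across the class the median distance to a 65 °C peak was 267 bp, and 65.2% lay within 500 bp of one. That distance was to the nearest peak of either 65 °C list, of 59431 and 55848 peaks. For 65 °C-only sites the median distance to a 50 °C peak was 4012 bp, and 18.3% lay within 500 bp. Only 1 list of 38099 peaks was searched there, so the distances are not like for like. The part of list size in them was not tested.

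The fresh frozen list, which took no part in choosing the sites, was met far more often by 65 °C-only sites than by 50 °C-only sites. Of the 65 °C-only sites, 6978 met a fresh frozen H3K27Ac peak, or 45.7% (95% interval 44.9 to 46.5), where 40% of all merged sites did. Of the 50 °C-only sites, 185 did, or 7.80% (6.78 to 8.94). The share was 81.1% (80.6 to 81.7) at shared sites and 16.2% (15.8 to 16.6) at sites in 1 library of the pair alone. The 65 °C-only class as a whole thus stood little above the background of all merged sites, and the 50 °C-only class well below it. Without asking for a peak in both libraries, the 65 °C share was 28.9% in library 1 and 30.9% in library 2, and the 50 °C share 10.1% and 12.2%. Intervals cover counting error only, since neighbouring sites are not independent.

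Counted from the fresh frozen side, 11118 of 47238 peaks (23.5%) were met in both 65 °C libraries and not at 50 °C. In the other direction 126 (0.267%) were met at 50 °C and in neither 65 °C library. All 3 lists met 20311, or 43.0%, and none of the 3 met 10567, or 22.4%. The peaks gained at 65 °C were of middle rank, with a median at the 48.3th percentile of the fresh frozen list. Their share was 30.6% between the 40th and 60th percentile of that list, 20.3% in its lowest 20% and 12.0% in its highest 20%. Of the 1000 highest fresh frozen peaks, 968 were met in all 3 lists, 19 in both 65 °C lists alone and 0 at 50 °C alone.

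Wide peaks were more often fresh frozen sites, in both classes of 65 °C peaks. Under 250 bp, 25.7% of library 1 peaks in 65 °C-only sites met a fresh frozen peak, and 17.3% of those in shared sites. In library 2 these shares were 28.7% and 19.4%. From 1000 bp to under 2000 bp the order was the other way round, with 74.0% against 87.4% in library 1 and 76.3% against 87.2% in library 2. The order turned at 500 bp in both libraries. At 50 °C only widths under 500 bp could be compared, since 3 peaks of 50 °C-only sites were wider. Under 250 bp, 43.8% (43.0 to 44.7) of 50 °C peaks in shared sites met a fresh frozen peak and 7.82% (6.73 to 9.06) of those in 50 °C-only sites. In the lowest 20% of ranks the shares were 42.8% and 7.59%, so the gap to shared sites was as wide at like rank as at like width. It was smaller against sites that were not in all 3 lists. For 50 °C peaks also found in 1 library of the pair, the shares were 15.5% under 250 bp and 14.8% in the lowest 20% of ranks. Under 250 bp, peaks in 1 library of the pair alone had 13.6% in library 1 and 13.9% in library 2.

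**Figure D2:**
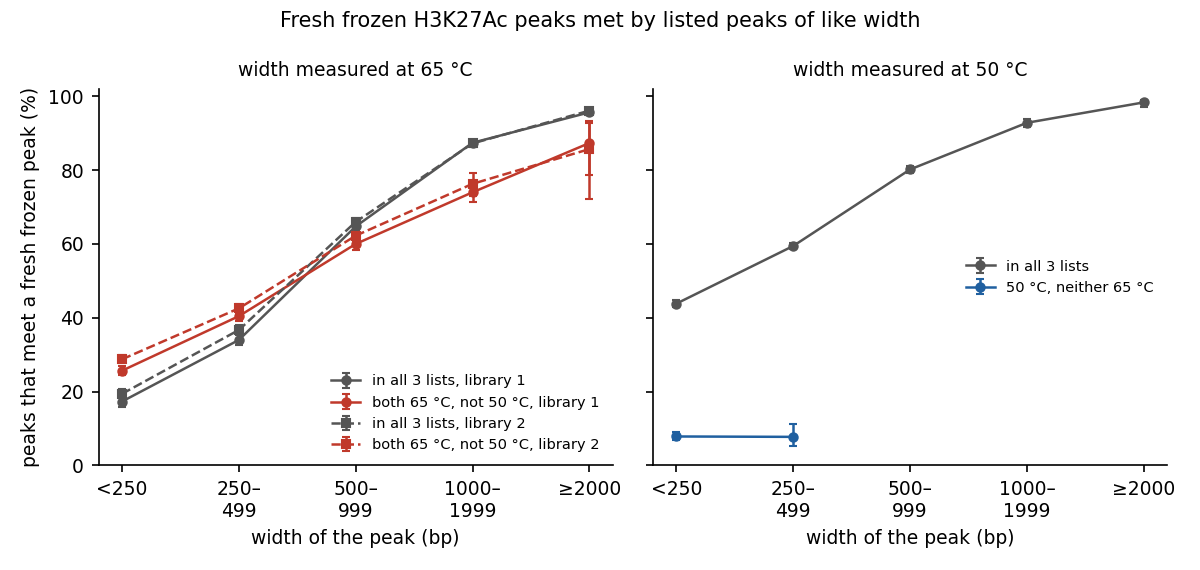
Share of listed peaks that met a fresh frozen H3K27Ac peak (vertical axis, percent) by peak width (horizontal axis, bp), for 65 °C peaks on the left and 50 °C peaks on the right. Bars are Wilson 95% intervals, bins of under 20 peaks are left out, and 50 °C-only peaks stay at 7.82% and 7.72% where 50 °C peaks of shared sites reach 43.8% and 59.4%.

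H3K4me2, the mark of promoters and enhancers in general, was met by 1341 of the 65 °C-only sites, or 8.78% (8.34 to 9.24), and by 20 of the 50 °C-only sites, or 0.843% (0.546 to 1.30). Among all merged sites the share was 11.9%. The share of 65 °C-only sites was 12.7% at equal list length, 13.6% with peaks merged within 500 bp, 5.32% without library 1 and 5.04% without library 2. That of 50 °C-only sites was 2.03% without library 1 and 1.12% without library 2. With a library left out, a peak in both was no longer asked for. Shared sites had 33.1% (32.4 to 33.8). Among wide peaks the shares differed more than for fresh frozen peaks, and among peaks under 250 bp they were close, at 3.27% and 3.19% in library 1 and 4.66% and 5.10% in library 2. From 1000 bp to under 2000 bp, 16.4% of library 1 peaks in 65 °C-only sites met an H3K4me2 peak and 41.0% of those in shared sites, and in library 2 the shares were 15.6% and 40.2%. At 2000 bp or more they were 8.05% (3.95 to 15.7) and 35.1% in library 1. In the highest 20% of ranks they were 26.6% and 44.3% in library 1 and 19.9% and 42.4% in library 2. The H3K4me2 list is short, with 11616 peaks, and a site it lacks may still carry the mark.

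Of the 65 °C-only sites with an H3K4me2 peak, 86.8% (84.9 to 88.5) also met a fresh frozen peak, against 41.7% of the others. They were wider and higher, with a median of 493 bp and the 61.4th percentile. The highest was on chromosome 9, 54580779 to 54582894, with widths of 2116 and 1423 bp and ranks of 5986 and 3830 in the pair. The fresh frozen list ranked it 3603 and the H3K4me2 list 3750, and it lay 106662 bp from the nearest 50 °C peak. The next were a 2337 bp site on chromosome 2, 130731713 to 130734049, ranked 10016 for H3K4me2, and a 736 bp site on chromosome 19, 5088404 to 5089139, ranked 2105. These lay 1143 and 142 bp from a 50 °C peak. In the 50 °C-only class the highest with H3K4me2 was a 176 bp site on chromosome 5, 110224518 to 110224693, of rank 8271 at 50 °C and 11465 for H3K4me2. It met no fresh frozen peak. The next, on chromosome 5, 118964290 to 118964435, was 146 bp wide and ranked 20945 at 50 °C, with an H3K4me2 rank of 3282. The one after that, on chromosome 2, 118752619 to 118752777, was 159 bp wide and ranked 22893, with an H3K4me2 rank of 4827.

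Counted from the H3K4me2 side, 2657 of 11616 peaks (22.9%) were met in both 65 °C lists and not at 50 °C, and 17 (0.146%) the other way. All 3 lists met 5572 (47.97%). Unlike for fresh frozen peaks, the share met at 65 °C alone hardly moved with the rank of the H3K4me2 peak, at 22.8% in the lowest 20% and 23.6% in the highest. Other shares did move at the top of the list. Of the highest 1000 H3K4me2 peaks, ties included, 337 were met in all 3 lists and 318 in none. Among all H3K4me2 peaks the shares were 47.97% and 20.6%.

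**Figure D3:**
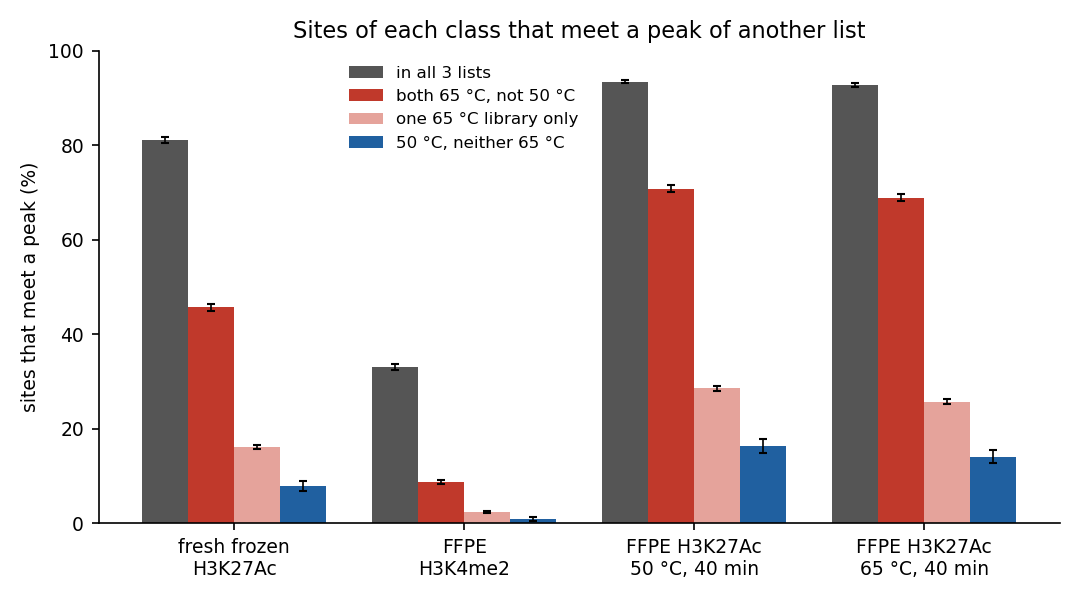
Share of sites in each class that met a peak of 4 other lists (vertical axis, percent), with Wilson 95% intervals as bars. For each list the order is shared sites, 65 °C-only sites, sites in 1 library of 65 °C and 50 °C-only sites, as in the fresh frozen shares of 81.1%, 45.7%, 16.2% and 7.80%.

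Within 5000 bp of a shared site lay 49.5% (48.7 to 50.3) of 65 °C-only sites and 61.4% (59.4 to 63.3) of 50 °C-only sites, where 52.2% of all sites that were not shared did. The median distances were 5170 and 2336 bp. The gap was small when listed peaks were counted in place of merged sites, at 56.2% and 58.7%, and when sites with a peak of the other temperature within 500 bp were left out, at 40.7% and 43.5%. Sites over 50000 bp away made up 16.8% of the 65 °C-only class and 9.57% of the 50 °C-only class.

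The position of a 65 °C-only site went with its fresh frozen peak. Of the 7567 sites within 5000 bp of a shared site, 24.1% (23.1 to 25.04) met a fresh frozen peak. Of the 7708 farther away, 66.9% (65.8 to 67.9) did. The median widths of these groups were similar, at 338 and 374 bp. In the narrowest sites, under 250 bp, the shares were 9.45% and 44.4%, and in those of 1000 bp or more 64.1% and 92.8%. H3K4me2 was met at 3.33% near shared sites and 14.1% farther away. The 50 °C-only sites had the same order at a lower level, with 2.34% within 5000 bp and 16.5% (14.2 to 19.01) beyond. Sites of 1 library of the pair alone went from 6.24% within 500 bp to 34.6% over 50000 bp. Of the 65 °C-only sites that met no fresh frozen peak, 76.7% lay within 5000 bp of one. For all merged sites without one, this share was 74.2%.

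**Figure D4:**
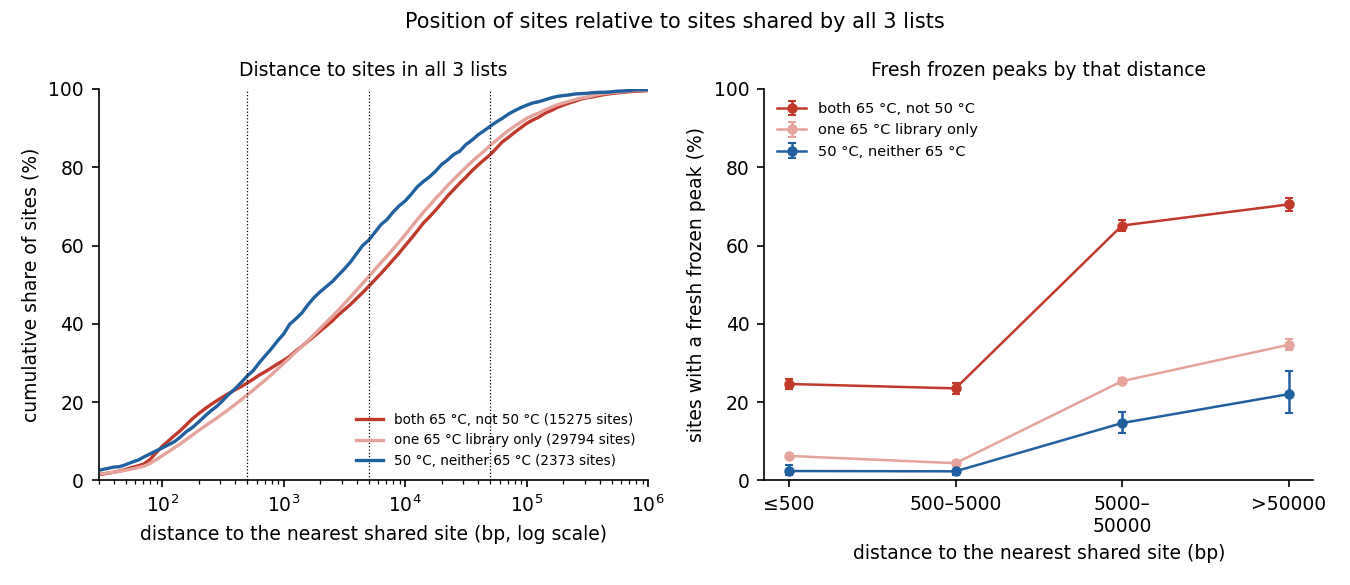
Left, cumulative share of sites (percent) by distance to the nearest shared site (bp, log scale). Right, share of sites with a fresh frozen peak (percent, Wilson 95% intervals) by that distance, which for 65 °C-only sites was 24.6% up to 500 bp, 23.5% up to 5000 bp, 65.1% up to 50000 bp and 70.5% beyond.

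Runs of at least 3 neighbouring sites of a class, with gaps of up to 12.5 kb and no site of another class between, held 11.7% of 65 °C-only sites in 528 runs. Shared sites had 10.9% in runs, sites of 1 library of the pair 30.3% and all merged sites 19.1%. The 50 °C-only class had 6 runs, each of 3 sites, which held 0.759% of it. The longest at 65 °C had 8 sites and there were 2 of them. One, on chromosome 4, 149165590 to 149174853, had 7 sites with a fresh frozen peak and all 8 with a peak in both 40 min lists. The other, on chromosome 5, 146338593 to 146345397, had 0 in fresh frozen liver, 0 for H3K4me2 and 0 in each 40 min list, although its sites reached the 89.7th percentile in the pair. The next run, of 7 sites on chromosome 5, 113569369 to 113578599, had 1 with a fresh frozen peak and all 7 with a peak at 40 min of either temperature.

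The classes were spread over all autosomes. The 65 °C-only sites made up between 20.2% of merged sites on chromosome 11 and 25.6% on chromosome 18. For 50 °C-only sites the share lay between 2.52% on chromosome 18 and 4.48% on chromosome 11. Within the 65 °C-only class the share with a fresh frozen peak lay between 38.5% on chromosome 11 and 52.4% on chromosome 13.

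The libraries with 40 min of sonication showed whether sites that differed by temperature at 5 min did so again. Of the 65 °C-only sites, 70.8% (70.1 to 71.5) were met by the 50 °C list of 40 min, where 55.3% of all merged sites were. The 65 °C list of 40 min met 68.9% (68.1 to 69.6), against 53.2% of all merged sites. Both 40 min lists held 60.6% of the sites, the 50 °C list alone 10.2%, the 65 °C list alone 8.29% and neither 20.9%. Over all merged sites these shares were 46.2%, 9.10%, 7.02% and 37.7%, so the shares in 1 list alone lay near the background. Of the 830 sites of at least 1000 bp, 98.1% were met by that 50 °C list. Sites of 1 library of the pair alone, also missed at 50 °C with 5 min, were met by it in 28.6% of cases. The 50 °C-only sites met a peak in 16.4% (14.9 to 17.9) of cases at 50 °C and 14.0% (12.7 to 15.4) at 65 °C, and neither list held 77.1% of them.

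Counted in pairs of lists at 40 min, 13268 sites were in the 65 °C list alone and 15946 in the 50 °C list alone, so the excess at 65 °C was -2678, against 34449 and 29699 at 5 min. The 40 min value was smaller in size than the 6520 sites between the 2 libraries of 65 °C and 5 min. After 40 min, 72.4% of fresh frozen peaks were met at 65 °C and 73.6% at 50 °C. After 5 min the pair met 73.3% and 70.6% and the 50 °C list 44.2%. The lists differed in length. At 40 min they held 63188 peaks over 34.2 Mb at 65 °C and 64465 over 35.9 Mb at 50 °C. The 50 °C list of 5 min held 38099 peaks over 17.1 Mb. The 65 °C lists of 5 min were also limited to their 38099 highest peaks. Then 19021 peaks of library 1 and 18423 of library 2 met no 50 °C peak. The 50 °C peaks that met none of library 1 and of library 2 numbered 5520 and 6115. The excess at 5 min was thus smaller at equal list length. List length was not varied at 40 min, and its part in the shares of fresh frozen peaks was not tested. The 40 min lists hold peaks as close as 36 bp to one another and the 5 min lists none closer than 76 bp, so calling may have differed with sonication time. Its part in these values was not tested.

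**Figure D5:**
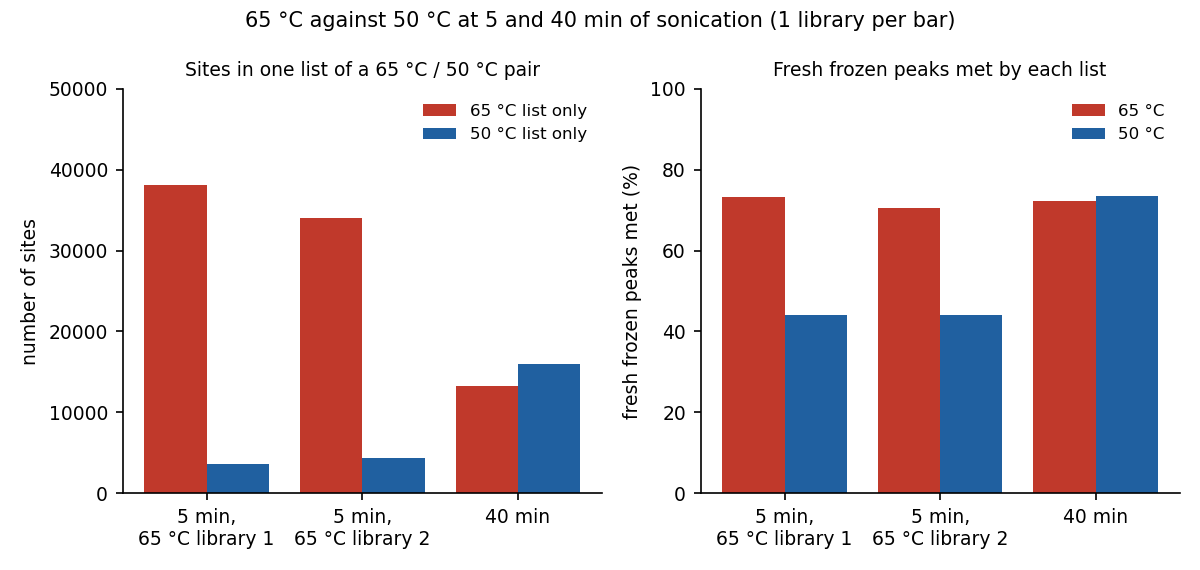
Left, sites in one list of a 65 °C and 50 °C pair of lists (number). Right, share of fresh frozen peaks met (percent), for the 2 libraries at 65 °C and 5 min against the same 50 °C list and for 40 min; each bar is 1 library, and at 40 min the bars are 13268 and 15946 sites and 72.4% and 73.6%.

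Sites that kept to one temperature at both times were about as frequent as the shares over all merged sites, 8.29% of 65 °C-only sites against 7.02% and 8.93% of 50 °C-only sites against 9.10%. All 3 lists of 65 °C and neither list of 50 °C held 1266 sites, with a median width of 290.5 bp, and a fresh frozen peak was found at 31.6% (29.1 to 34.2). Both lists of 50 °C and none of 65 °C held 212, with a median width of 173 bp and 15.1% (10.9 to 20.5) with a fresh frozen peak. The highest of the 1266 lay on chromosome 5, 146531170 to 146531787, with ranks of 4589 and 6881 at 5 min and 22815 at 40 min. It met neither a fresh frozen nor an H3K4me2 peak and lay 2438 bp from a 50 °C peak. The next, a 279 bp site on chromosome 18, 13107676 to 13107954, had ranks of 7936 and 6310 in library 1 and library 2. Its fresh frozen peak had rank 104 and its H3K4me2 peak rank 30. Repeat regions were not filtered out here, and what this peak marks was not tested. The highest of the 212 was a 146 bp site on chromosome 5, 24413993 to 24414138, of rank 8271 after 5 min, 60194 after 40 min and 8160 in fresh frozen liver.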

How the data were processed

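BWA, MACS2 and the build mm9 are named in the submitters' processing notes, which here carry no versions, thresholds or control library. The authors deposited 1 peak list per library, not pooled. The deposited score column, taken from its range and steps to be −log10 of a q-value, served only for ranks within a list. Read depth is unknown. Sites were connected sets of peaks that overlapped by at least 1 bp. A site's width and rank are those of its widest and highest peak, averaged over the lists that hold it. Shares carry Wilson 95% intervals. Comparisons by width and rank used listed peaks in place of sites.

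Named sites followed 1 rule: the 5 highest by rank, the 3 highest with an H3K4me2 peak, the 3 highest with a fresh frozen peak, the 3 widest and the 3 longest runs of each class. Sites that kept to one temperature were added after their values were seen. Members and comparisons were chosen with earlier results of these data known. Neither gene annotation nor genome sequence of mm9 was used, so sites carry no gene names or sequences. Samples were grouped by title. The 80 °C list and the input were not used here. Site building and distances were tested on simulated lists. Alternatives are given at the end. The software was Python 3.11.15 with pandas 2.3.3, numpy 2.4.6 and scipy 1.17.1, and matplotlib 3.10.9 drew the plots.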

Additional observations from a re-analysis of the deposited data

Results flagged for a closer look

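The excess of sites at 65 °C over 50 °C had a different sign at the 2 sonication times. It was 34449 sites in library 1 and 29699 in library 2 after 5 min and -2678 after 40 min. The share of fresh frozen peaks met was 29.2 and 26.4 percentage points higher at 65 °C in the 2 libraries after 5 min, and -1.22 points after 40 min. Both 40 min values, from 1 library at each temperature, were smaller in size than the gap between the 2 like libraries of 65 °C and 5 min, which was 6520 sites and 73.3% against 70.6% of fresh frozen peaks. With −log10 q-values of at least 5 the 40 min value was -8100 sites, and with peaks merged within 500 bp it was -645. The -8100 sites were larger in size than the 6520 of the pair, a gap taken without that limit on the q-value. The 40 min lists were also longer than the 50 °C list of 5 min. The difference between sonication times was not tested, because only 65 °C with 5 min had more than 1 library.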

How the results depend on the processing

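In all 9 settings, the reported one included, 65 °C-only sites outnumbered 50 °C-only sites (by 2.03 to 17.2 times) and had the larger median width and rank and the larger shares with fresh frozen and H3K4me2 peaks, and the smaller share within 5000 bp of a shared site. Counts of 65 °C-only and 50 °C-only sites were called moved past a fixed fold limit. Other values were called moved past the SD of the values with either 65 °C library left out, which is not a spread of the reported value. By these rules 72 of 104 alternative values moved and 32 did not. The excess of sites kept its sign at each sonication time. Where values moved, the cause was not tested.

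With the 65 °C lists limited to the length of the 50 °C list, 65 °C-only and 50 °C-only sites numbered 7815 and 3847. Their median widths were 492.5 and 180.0 bp, their median percentile ranks 40.2 and 23.9, and their shares near a shared site 43.9% and 58.6%. Fresh frozen peaks were met by 58.9% and 11.1%, and H3K4me2 by 12.7% of 65 °C-only sites. With peaks merged within 500 bp, there were 8523 65 °C-only sites of 622.5 bp. Ranks were 39.4 and 16.7, shares near shared sites 29.5% and 55.7%, and 62.5% and 13.6% of 65 °C-only sites met fresh frozen and H3K4me2 peaks. With an overlap of at least 50% of the shorter peak, 50 °C-only sites numbered 3598, widths were 379.5 and 181 bp, 64.7% of 50 °C-only sites lay near a shared site and 9.92% met a fresh frozen peak, and 9.004% of 65 °C-only sites met H3K4me2. With −log10 q-values of at least 5, there were 810 50 °C-only sites, widths were 508.5 and 185.5 bp, the 50 °C-only rank was 16.1, and 37.5% and 53.7% lay near shared sites. H3K4me2 was met by 9.67% and 0.123%, and fresh frozen peaks by 53.6% of 65 °C-only sites. With peaks counted in place of merged sites, 65 °C-only peaks were those of library 1, and each temperature had its own shared peaks as reference. The 65 °C-only width was 344 bp and rank 49.1, and shares near shared peaks were 56.2% and 58.7%. H3K4me2 and fresh frozen peaks were met by 7.24% and 40.0% of 65 °C-only peaks.

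Leaving out either 65 °C library gave 34040 to 38103 65 °C-only and 3654 to 4341 50 °C-only sites. This also dropped the need for a peak in both 65 °C libraries, so the classes were no longer replicated ones. Widths were 246 to 254 and 179 to 179 bp, ranks 32.5 to 35.9 and 23.7 to 24.7, and shares near shared sites 55.1% to 57.2% and 67.5% to 67.7%. H3K4me2 was met by 5.04% to 5.32% and 1.12% to 2.03%, and fresh frozen peaks by 28.9% to 30.9% and 10.1% to 12.2%. Asking for no peak of the other temperature within 500 bp, an alternative chosen after seeing the data, left 826 50 °C-only sites of 170.5 bp. Shares near shared sites were 40.7% and 43.5%, and 9.52% and 49.4% of 65 °C-only sites met H3K4me2 and fresh frozen peaks. The excess of sites at 65 °C, whose alternatives were also added later, averaged 32074 at 5 min. It was 27815 with −log10 q-values of at least 5, 14897 with peaks merged within 500 bp, and 29699 to 34449 with a library left out. At 40 min it was -8100 with −log10 q-values of at least 5 and -645 with peaks merged. No paired analysis was possible because 50 °C had 1 library and the compared groups share fewer than 2 replicate numbers.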

Other observations

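A few 65 °C-only sites carried peaks that ranked at the top of other lists. A 166 bp site on chromosome 6, 103599152 to 103599317, held the fresh frozen peak of rank 3 and the H3K4me2 peak of rank 2. Its ranks were 26052 and 22916 in the 65 °C pair, it met the peak of rank 66 among 112 FiT-seq H3K27Ac peaks, and neither 40 min list held it. Of the 12 sites of the class with one of the 100 highest H3K4me2 peaks, 9 met a fresh frozen peak. At 40 min, 1 of them was met at 50 °C and 6 at 65 °C, where 70.8% and 68.9% of the class were. The 12 sites had a median width of 176 bp. These sites were chosen after their values were seen. No filter for repeats or low mappability was applied here, so what these narrow, high peaks mark was not tested.

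Sites of the 65 °C-only class that neither 40 min list held numbered 3190. They had a median width of 254 bp, 17.5% (16.2 to 18.8) met a fresh frozen peak and 4.73% met an H3K4me2 peak. For the 9256 sites that both 40 min lists held, the width was 441.5 bp and the shares were 59.8% and 11.0%.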
